A study of Homo sapiens with 12 samples.

Results

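The transcriptomes of untransfected parental Rh30 cells (WT) and of the Rh30 control clone (CON) were compared directly on Agilent 2-color arrays. Rh30 is an established human alveolar rhabdomyosarcoma (ARMS) cell line that carries the PAX3-FKHR fusion. CON is a single stable clone of Rh30 that was transduced with a pSUPER.retro.puro vector expressing a non-targeting shRNA and was kept in 1 μg/mL puromycin. WT had no vector and no puromycin. Both cultures therefore kept PAX3-FKHR, and the comparison addresses how far a control clone differs from the line from which it was derived. The presence of the vector, the selection of a clone and puromycin cannot be told apart in this design. The members are the 4 of 12 arrays of the series that hold a WT and a CON extract together, namely 2 biological replicates and a dye-swap pair for each replicate. RNA was taken after 24 h of growth, and 500 ng was labeled. The other 8 arrays compare a PAX3-FKHR knockdown clone (KD1), also kept in puromycin, with WT or CON and reuse the same WT and CON extracts. The labels call the replicates biological, and the p-values given here rest on the spread between replicates, pooled over the 3 comparisons of the series.

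All values are log2 ratios of WT over CON, so that a positive value means a higher level in WT. Each replicate value is the average of a dye-swap pair, and the mean and SD of 2 replicate values are given (n = 2). Of 41000 probes for 30238 gene names, 26595 probes for 19125 genes were tested, namely those brighter on each array, in WT or in CON, than 99% of the negative control spots. The brightest probe stood for its gene. On the 4 arrays, 71.3% to 73.1% of spots were well above background in Cy3 and 64.4% to 66.3% in Cy5, and 0 spots were saturated. Across 26566 probes, which are not independent of each other, the replicate values of WT vs CON correlated with r = 0.483.

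ARMS cells resemble skeletal muscle precursors. They express the myogenic regulators MYOD1 and MYOG, yet complete terminal differentiation poorly. In normal muscle, these basic helix-loop-helix factors bind E-boxes, which have the letters CANNTG, and switch on the genes of the sarcomere, the contractile unit of the fiber. A cell line is a mixed population of cells, and a clone descends from a single cell of it.

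Of 10 markers of fusion-positive rhabdomyosarcoma, 9 were well above background on all arrays of both WT and CON, and TFAP2B was on none. The summed processed intensity of the 10 markers was 158261 and 146914 in the WT extracts and 166586 and 213139 in the CON extracts. The WT extract of replicate 2 stood apart in the epithelial markers EPCAM and KRT19. EPCAM, an epithelial adhesion molecule, was 0.84 and -0.36 on the arrays of replicate 1 and 5.96 and 4.91 on those of replicate 2. KRT19, a keratin, was -0.49 and 0.51 in replicate 1 and 3.03 and 2.96 in replicate 2. The same extract also had the higher EPCAM level on the KD1 arrays, where KD1 over WT was 0.14 in replicate 1 and -5.56 in replicate 2. CLDN4, a claudin, was instead higher in replicate 1, with 2.05 and 2.20 against 1.52 and 1.78 in replicate 2. KRT14 and CLDN4 were well above background on all arrays of both cultures. The summed intensity of the 7 epithelial markers was 526 and 957 in WT and 228 and 246 in CON, and KRT5 was well above background on no array. Whether epithelial cells were present was not tested, nor was their part in the differences. Array values, replicate values or the SD between replicates are therefore given for most genes. The blood markers PTPRC, HBB and SPI1 and the endothelial marker KDR were well above background on no array. The summed intensity of the 7 blood markers was 347 and 301 in WT and 344 and 262 in CON. That of the 6 endothelial markers was 1593 and 1520 in WT and 3174 and 3003 in CON, and that of the 6 neuronal and glial markers was 7402 and 5167 in WT and 6799 and 5860 in CON. In bulk RNA, fewer cells of a type and less RNA per cell cannot be told apart.

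The promoters of 5 muscle genes with lower levels in WT, chosen after their values were seen, are shown first. Whether E-box binding factors act on these genes here was not tested. Each sequence is the 250 bases before the RefSeq gene start on GRCh38.p14, 5′ to 3′ on the strand of the gene, with CANNTG in capitals. The windows are chrX:21758117-21758366 on the minus strand, chr2:88067575-88067824 on the plus strand, chr1:203175827-203176076 on the minus strand, chr4:119135582-119135831 on the plus strand and chr1:203086013-203086262 on the minus strand.
SMPX: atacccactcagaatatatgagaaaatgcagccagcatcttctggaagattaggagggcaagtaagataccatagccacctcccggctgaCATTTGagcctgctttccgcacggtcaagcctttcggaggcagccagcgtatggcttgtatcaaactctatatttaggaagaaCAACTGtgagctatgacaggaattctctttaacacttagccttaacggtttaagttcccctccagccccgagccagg
SMYD1: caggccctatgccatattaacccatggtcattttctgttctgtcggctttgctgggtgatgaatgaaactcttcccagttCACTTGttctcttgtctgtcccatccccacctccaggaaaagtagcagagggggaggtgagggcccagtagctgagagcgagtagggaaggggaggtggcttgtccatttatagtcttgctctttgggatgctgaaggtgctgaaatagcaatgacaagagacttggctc
MYBPH: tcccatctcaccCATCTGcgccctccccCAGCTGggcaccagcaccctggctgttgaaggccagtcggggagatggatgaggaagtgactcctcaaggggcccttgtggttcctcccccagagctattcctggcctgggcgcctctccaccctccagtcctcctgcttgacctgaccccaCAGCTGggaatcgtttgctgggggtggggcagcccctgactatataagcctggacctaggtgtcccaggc
MYOZ2: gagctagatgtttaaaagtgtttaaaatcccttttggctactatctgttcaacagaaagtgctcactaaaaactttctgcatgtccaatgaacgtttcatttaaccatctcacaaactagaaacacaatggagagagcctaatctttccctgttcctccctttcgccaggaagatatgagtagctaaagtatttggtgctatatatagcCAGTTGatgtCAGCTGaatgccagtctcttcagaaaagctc
MYOG: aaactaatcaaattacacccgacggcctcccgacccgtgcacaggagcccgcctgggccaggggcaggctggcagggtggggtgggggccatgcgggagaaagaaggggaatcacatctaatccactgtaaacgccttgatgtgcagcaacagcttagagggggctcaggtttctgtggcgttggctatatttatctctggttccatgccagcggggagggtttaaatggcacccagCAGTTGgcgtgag
CANNTG reads the same on both strands, and 61.8% of 35114 RefSeq windows of this length hold it, so its presence in each of the 5 windows is a description only. The form CAGCTG is in 14% of all windows. It occurs 2 times before MYBPH and 1 time before MYOZ2, and 1.27% of all windows hold at least 2 copies.

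The promoters of 3 genes that were not well above background on any CON array are shown for contrast, with every CG pair in capitals. They lie at chr2:189580787-189581036 on the minus strand, chr1:52602121-52602370 on the plus strand and chr2:137964223-137964472 on the plus strand.
SLC40A1: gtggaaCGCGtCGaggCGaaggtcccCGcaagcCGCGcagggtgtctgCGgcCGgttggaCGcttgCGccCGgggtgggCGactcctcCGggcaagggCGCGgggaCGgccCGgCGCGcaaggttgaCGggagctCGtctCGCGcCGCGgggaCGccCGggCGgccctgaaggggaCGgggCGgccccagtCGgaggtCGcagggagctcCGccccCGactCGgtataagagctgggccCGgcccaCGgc
GPX7: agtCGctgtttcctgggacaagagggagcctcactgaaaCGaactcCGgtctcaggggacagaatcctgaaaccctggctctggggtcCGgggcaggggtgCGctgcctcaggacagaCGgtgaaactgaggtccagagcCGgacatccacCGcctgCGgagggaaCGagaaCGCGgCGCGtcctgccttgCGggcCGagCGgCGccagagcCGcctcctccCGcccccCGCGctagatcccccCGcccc
HNMT: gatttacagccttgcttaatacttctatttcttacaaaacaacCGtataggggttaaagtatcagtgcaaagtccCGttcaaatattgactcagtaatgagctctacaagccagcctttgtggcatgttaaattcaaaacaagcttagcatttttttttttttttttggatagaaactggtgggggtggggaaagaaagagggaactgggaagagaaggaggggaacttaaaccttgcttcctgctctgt
SLC40A1 has 38 CG pairs, GPX7 has 23 and HNMT has 2, against a median of 11 over all windows. The genes with a low signal in CON thus include both CG-rich and CG-poor promoters. RefSeq windows were found for 12 of the 14 genes with the largest increases and for 12 of the 14 with the largest decreases. The median number of CG pairs was 23 over the 16 windows of the former and 4.5 over the 18 windows of the latter.

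WT and CON differed by at least 2-fold, with the same direction on all 4 arrays, at 903 of 19125 genes (4.72%). Of these, 490 were higher in WT (2.56%) and 413 were lower (2.16%). The split depended on the replicate, with 559 higher and 727 lower without replicate 1 and 967 higher and 550 lower without replicate 2. By limma with Benjamini-Hochberg adjustment over all probes, 378 of 26595 probes (1.42%) passed an adjusted p of 0.05, and 4400 had an unadjusted p under 0.05. The test allowed for the extracts that the comparisons share, and without this allowance 233 probes passed, 212 of them among the 378. As genes, 294 of 19125 passed (1.54%), with 164 higher in WT (0.858%) and 130 lower (0.680%). All 294 had the same direction on the 4 arrays and differed at least 2-fold, and 118 of them differed at least 4-fold and 17 at least 16-fold. The median of the genes that rose was 1.82 and that of the genes that fell was -1.73. Over all tested genes the same direction on 4 arrays was seen at 8325 (43.5%). The median absolute difference between the replicate values was 0.35 for all tested genes and 0.38 for the 294, which were called in part for a small difference. With normexp background correction and loess in place of the authors' processed signals, only 2 probes passed, those of CCDC3 (4.79) and IGFBP2 (4.21), while 4685 had an unadjusted p under 0.05. Just inside the 2-fold limit were tcag7.1307 and the unnamed probe A_23_P108534, both at -1.0, and just outside it were ITPR2 and EPB41L1, both at 1.0.

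**Figure D1:**
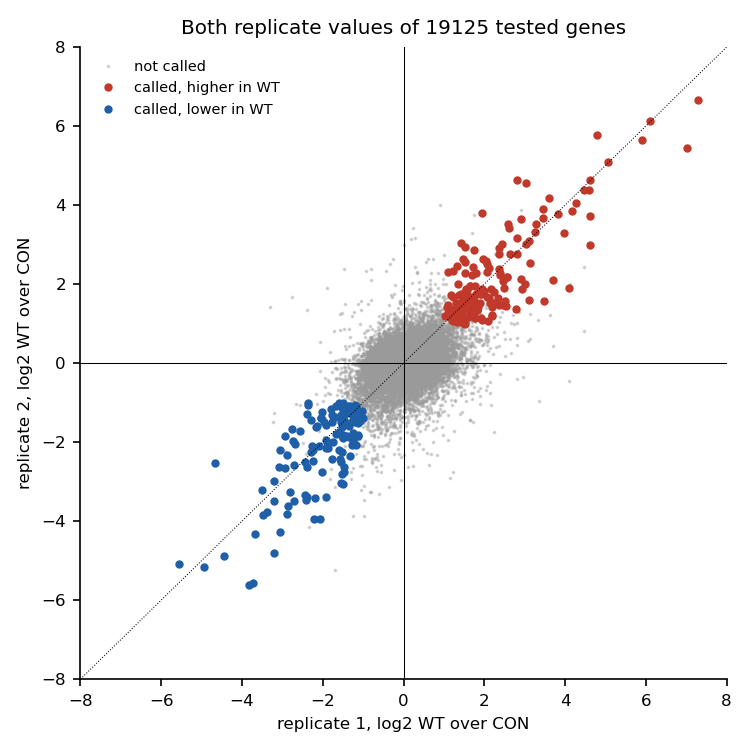
Log2 ratio of WT over CON in replicate 1 (x axis) and replicate 2 (y axis) for the 19125 tested genes, with the 164 genes that rose and the 130 that fell in color. The median difference between replicates was 0.38 for the called genes, whose closeness follows from how they were called, 0.58 for the 903 genes at least 2-fold apart and 0.35 for all tested genes.

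The largest increase in WT was that of SLC40A1. This gene encodes ferroportin, the cellular iron exporter, and its probe lies at chr2:190133995-190134054 on build NCBI36, which the array annotation assigns to the SLC40A1 mRNA. Whether a probe lies in a coding or an untranslated part of an exon is not given in the sources used here. Its log2 ratios were 7.91 and 6.70 on the arrays of replicate 1 and 7.14 and 6.19 on those of replicate 2, with a mean of 6.99 ± 0.45 (SD, n = 2; limma adjusted p = 1.88e-04). SLC40A1 was well above background on every WT array and on no CON array. The ratio is then only bounded, and the level in WT was at least 26.7-fold higher, computed against the lowest signal well above background. The mean normalized log2 intensities behind this bound were 8.67 in WT and 1.69 in CON. GPX7, a glutathione peroxidase of the endoplasmic reticulum, had 6.81 and 7.24 in replicate 1 and 5.69 and 5.20 in replicate 2 (mean 6.23 ± 1.11, adjusted p = 0.00257) and was at least 26.6-fold higher. KCNK1, a subunit of background potassium channels, had 6.10 and 6.09 and then 6.65 and 5.62 (mean 6.11 ± 0.03, adjusted p = 2.97e-04) and was at least 18-fold higher. For each of these genes the 4 arrays lay far above 0 and the CON extracts were at background.

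HNMT, which inactivates histamine by methylation, was at least 5.29-fold higher in WT, with array values from 3.69 to 4.17. EPHX4, an epoxide hydrolase family member, was at least 5.71-fold higher, with array values from 3.15 to 4.94. ZNF879, a zinc finger gene, was at least 5.21-fold higher. F11R encodes junctional adhesion molecule A, a protein of cell-cell contacts. It was at least 3.74-fold higher in WT, with array values of 3.80, 3.38, 4.21 and 4.13. TSTD1, a sulfurtransferase gene, had 4.94, 4.63, 5.65 and 5.92 (mean 5.28 ± 0.71, adjusted p = 7.67e-04). The F11R and TSTD1 probes are neighbors on the minus strand of chromosome 1, at chr1:159232657-159232716 and chr1:159274388-159274447 of NCBI36.

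Among the genes for secreted proteins, IGFBP2 binds insulin-like growth factors outside the cell. Its log2 ratios were 5.31, 4.84, 5.25 and 4.93 (mean 5.08 ± 0.01, adjusted p = 2.97e-04). CCDC3, a secreted coiled-coil protein, had 6.05, 5.75, 5.66 and 5.64 (mean 5.78 ± 0.18, adjusted p = 2.81e-04). SMOC1, a calcium-binding matrix protein that modulates BMP signaling, had 4.61, 4.57, 4.19 and 4.54. The heparin-binding growth factor PTN had 4.44, 4.11, 4.30 and 3.80 (mean 4.16 ± 0.16). GREM1, an antagonist of BMP ligands, had 3.13 and 2.95 in replicate 1 and 4.43 and 4.72 in replicate 2. The spread was thus small for IGFBP2, CCDC3, SMOC1 and PTN, and larger than 1 log2 unit between replicates for GREM1. The largest increases named here had adjusted p between 1.88e-04 and 0.00303, and 7 of the 14 genes with the largest increases were not well above background on any CON array.

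**Figure D2:**
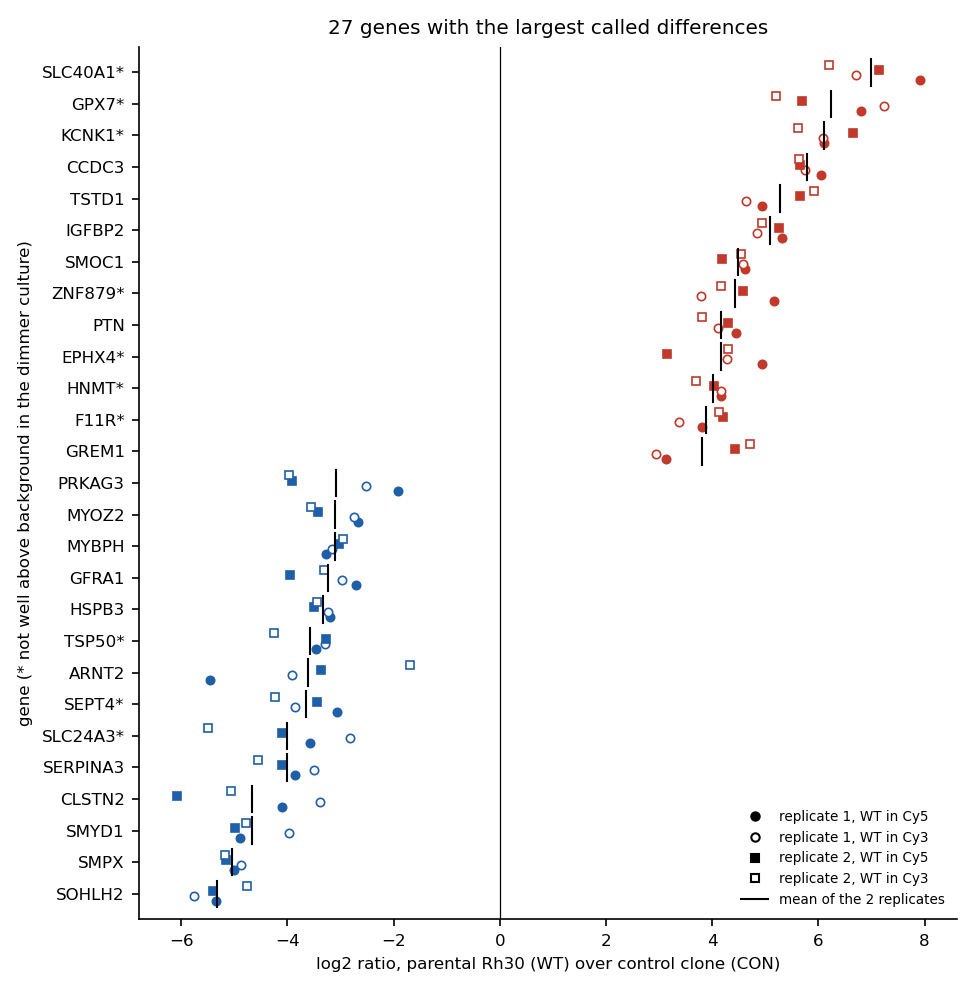
Log2 ratio of WT over CON (x axis) on each of the 4 arrays for 13 of the 14 genes with the largest increases and the 14 with the largest decreases, with circles for replicate 1, squares for replicate 2, filled and open symbols for the dye-swap arrays and a line at the mean; a star marks genes not well above background in the dimmer culture. Means run from 3.81 to 6.99 for the increases and from -3.08 to -5.32 for the decreases, and all 4 arrays of each gene lie on the same side of 0.

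Of the 14 genes with the largest decreases in WT, 6 are known from muscle, a grouping made after their values were seen, and of these only MYBPH and MYOZ2 are in the sarcomere list. SMPX, a small cytoskeletal protein of striated muscle encoded on the X chromosome, had -5.00 and -4.88 in replicate 1 and -5.16 and -5.17 in replicate 2 (mean -5.05 ± 0.16, adjusted p = 0.00429). The normalized log2 intensity of SMPX was 12.87 and 13.89 in the CON extracts and 7.93 and 8.73 in the WT extracts, so that the gene was well measured in both. SMYD1, a histone methyltransferase of heart and skeletal muscle, had -4.89, -3.98, -4.98 and -4.78 (mean -4.66 ± 0.31, adjusted p = 0.00994). HSPB3, a small heat shock protein of muscle, had -3.19, -3.23, -3.50 and -3.45. MYBPH, a thick-filament protein, had -3.27, -3.17, -3.03 and -2.95 (mean -3.10 ± 0.17, adjusted p = 0.00540). The Z-disc protein gene MYOZ2 had -2.68 and -2.75 in replicate 1 and -3.42 and -3.56 in replicate 2. PRKAG3, the regulatory AMPK subunit of skeletal muscle, had -1.92, -2.52, -3.91 and -3.98. All 6 genes were lower in WT on every array, and of them only PRKAG3 differed by more than 1 log2 unit between replicates.

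The other genes with large decreases have no common role. SOHLH2, a helix-loop-helix factor of germ cells, had the lowest mean at -5.32 ± 0.33, with array values from -4.76 to -5.77. SERPINA3, a secreted protease inhibitor, had -3.85, -3.50, -4.10 and -4.55 (adjusted p = 0.00118). CLSTN2, a synaptic cadherin-family protein, had -4.11 and -3.38 in replicate 1 and -6.09 and -5.06 in replicate 2. GFRA1, a receptor of glial cell line-derived neurotrophic factor, had -2.71, -2.98, -3.96 and -3.31. ARNT2, a partner of bHLH-PAS factors, ranged from -1.70 to -5.45. SLC24A3, a sodium, potassium and calcium exchanger, SEPT4, a septin, and TSP50, a testis protease gene, were not well above background on any WT array. Their levels in WT were at least 4.23-fold, 2.69-fold and 2.55-fold lower, respectively. The 14 largest decreases had adjusted p between 0.00118 and 0.0484.

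Genes seen in a single culture were few. The brightest probe of 16 genes was well above background on every WT array while none of their probes was on any CON array, and the reverse held for 11 genes. The direction of these genes follows from how they were chosen. Bounds over the 16 genes ran from 1.78-fold to 26.7-fold, and over the 11 from 1.58-fold to 5.34-fold. The brightness needed for the test is a different measure, and 13 of the 16 and 9 of the 11 met it. ITGA2, the collagen-binding integrin subunit, was among the former, at least 6.11-fold higher in WT, with 3.56, 4.10, 3.74 and 3.79. Chosen after its value was seen, PVALB, a calcium-binding protein of fast muscle fibers, was among the latter, at least 2.51-fold lower in WT (adjusted p = 0.0483).

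Sarcomere genes were lower in WT as a group. Of 32 listed genes, 28 were tested, and 27 of these had a negative mean. The median was -0.87, with -0.95 in replicate 1 and -1.18 in replicate 2, against -0.03 over all tested genes. MYBPH, MYOZ2, MYL1, TNNI1 and MYL4 fell, where 0.680% of all tested genes fell, and 0 of the 28 rose. In 11 of the 28 the level was at least 2-fold lower with the same direction on all arrays, as it was in 2.16% of all tested genes. MYL1, an essential light chain of fast myosin, had -2.40, -2.37, -2.67 and -2.61 (mean -2.51 ± 0.18, adjusted p = 0.0371). TNNI1, the inhibitory troponin of slow fibers, had -2.53, -2.95, -1.90 and -2.04 (mean -2.36 ± 0.54, adjusted p = 0.00834). MYL4, the light chain of embryonic muscle, had -2.19, -2.15, -1.65 and -1.61. TNNC1 and MYLPF had means of -2.58 and -2.25 and did not pass (adjusted p = 0.0605 and 0.0845). TCAP, the Z-disc cap of titin, was the exception with a mean of 0.64 ± 0.06, and its 4 arrays lay between 0.46 and 0.77. The list median ranged from -0.62 to -0.92 under the other ways of scaling.

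The upstream regulators of muscle did not move as a group. Of 21 tested regulators only MYOG passed, with -2.0 and -1.92 in replicate 1 and -1.63 and -1.36 in replicate 2 (mean -1.73 ± 0.33, adjusted p = 0.0183). MYOG is the factor that drives terminal differentiation of myoblasts. MYOD1, which specifies the lineage, had a mean of -0.04 ± 0.28, with array values from -0.39 to 0.29. MYF5, an early determination factor, had a mean of 1.58 ± 0.36 (adjusted p = 0.0948). MEF2C, a partner of the myogenic factors, had a mean of -1.05 ± 0.05 (adjusted p = 0.0649). The list median was -0.03. Of the 11 genes of the neuromuscular junction, 0 passed by limma adjusted p and 3 had an unadjusted p under 0.05, and the median was -0.11. Over all tested genes 1.54% passed and 16.6% had an unadjusted p under 0.05.

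**Figure D3:**
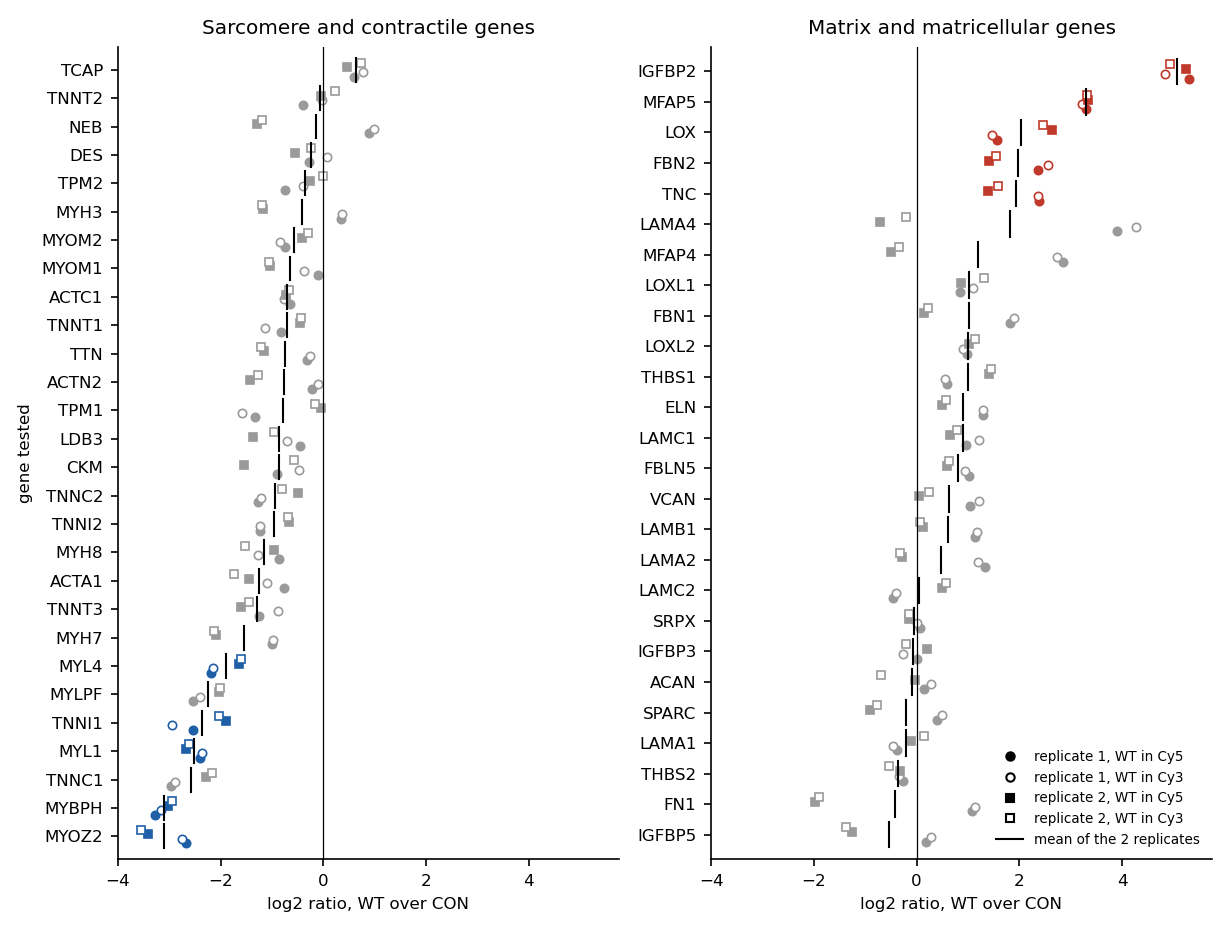
Log2 ratio of WT over CON (x axis) on each of the 4 arrays for the 28 tested sarcomere genes (left) and the 26 tested matrix genes other than collagens (right), with filled and open symbols for the dye-swap arrays, circles for replicate 1, squares for replicate 2 and a line at the mean; genes that passed are in color. Means of 27 of the 28 sarcomere genes lie below 0, and the 5 matrix genes that passed lie above it, while FN1, LAMA4 and MFAP4 split by replicate.

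Genes of the extracellular matrix that passed were all higher in WT. Of 26 tested collagen genes 4 rose and 0 fell, and of 26 other matrix genes 5 rose and 0 fell, where 0.858% of all tested genes rose. COL2A1, the collagen of cartilage, had 3.90 and 3.47 in replicate 1 and 2.12 and 2.08 in replicate 2 (mean 2.89 ± 1.12, adjusted p = 0.0421). COL7A1 of anchoring fibrils had a mean of 1.60 ± 0.19, COL12A1 a mean of 1.43 ± 0.09 and the basement membrane gene COL4A2 a mean of 1.58 ± 0.73. Among the other matrix genes, MFAP5, a microfibril protein, had 3.29, 3.22, 3.34 and 3.31 (mean 3.29 ± 0.05, adjusted p = 0.00114). LOX, which cross-links collagen and elastin, had a mean of 2.03 ± 0.74, FBN2, a fibrillin of elastic fibers, 1.97 ± 0.70, and tenascin C, encoded by TNC, 1.93 ± 0.63. IGFBP2, described above, is the fifth of these genes. The list medians depended on the replicate. The collagen median was 0.74 in replicate 1 and 0.20 in replicate 2, and that of the other matrix genes was 1.09 and 0.16.

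Several matrix genes, chosen after their values were seen, took opposite directions in the replicates. Fibronectin, FN1, had 1.07 and 1.13 in replicate 1 and -1.98 and -1.90 in replicate 2. The laminin chain gene LAMA4 had 3.90 and 4.27 in replicate 1 and -0.71 and -0.21 in replicate 2, and MFAP4, a microfibril-associated glycoprotein, had 2.86 and 2.73 and then -0.49 and -0.34. The dye-swap arrays of a replicate were thus close to each other for these genes while the pairs of extracts were not, and none of them passed (adjusted p = 0.795, 0.352 and 0.483).

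Of the genes through which cells attach to and remodel the matrix, the few that passed were also higher in WT. Of 29 integrin and adhesion genes, ITGA2 and ITGAV rose and 0 fell, where 0.858% of all tested genes rose and 0.680% fell. At a share of 0.680%, lists of this size would seldom hold a gene that fell. ITGAV, the alpha V subunit, had 1.95, 1.91, 1.18 and 1.02 (mean 1.51 ± 0.59, adjusted p = 0.0432). Of 18 genes for matrix metalloproteinases and their inhibitors, only MMP2 passed. MMP2, a gelatinase, had 3.69, 3.23, 3.81 and 3.55 (mean 3.57 ± 0.15, adjusted p = 0.00331) and was well above background on 1 of the 4 arrays in CON. Of 14 cadherins and related adhesion genes, ALCAM rose with a mean of 1.86 ± 0.14 (adjusted p = 0.00937). Of the epithelial markers 3 were tested, and CLDN4, a tight junction claudin, rose in both replicates, with 2.05, 2.20, 1.52 and 1.78 (adjusted p = 0.0375).

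Of 36 tested genes for axon guidance, which also steer cell migration, 4 rose and 0 fell, where 0.858% of all tested genes rose, and the list median was 0.41. The secreted semaphorin gene SEMA3D had 2.62 and 3.03 in replicate 1 and 4.90 and 4.35 in replicate 2. EPHB2, an ephrin receptor, had a mean of 1.65 ± 0.11, NTNG1, a membrane-bound netrin, 1.64 ± 0.08, and NRP1, a semaphorin and VEGF co-receptor, 1.40 ± 0.31. In each of these genes all 4 arrays were above 1.

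**Figure D4:**
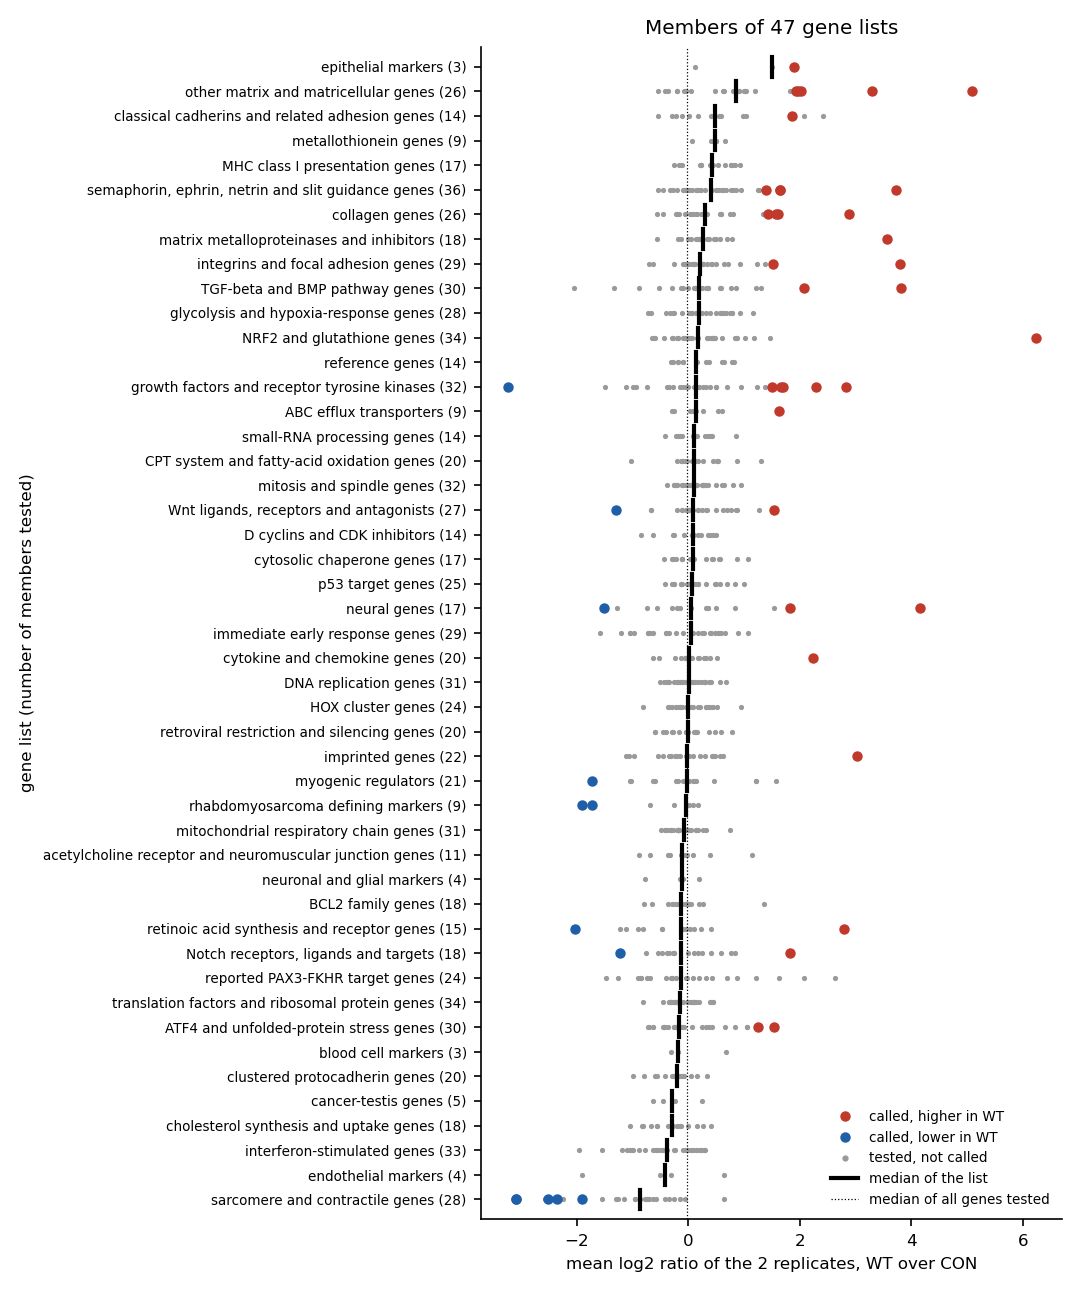
Mean log2 ratio of WT over CON (x axis) of the tested members of each of the 47 gene lists (points), with the genes that rose or fell in color, a bar at the list median and a dotted line at the median of all tested genes (-0.03). The sarcomere list has the lowest median (-0.87) and 5 genes that fell, whereas the collagen and other matrix genes that passed, 4 and 5 in number, all lie to the right.

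Ligands and receptors of growth factor pathways differed in both directions. Among 32 tested genes of receptor tyrosine kinase pathways, 5 rose and 1 fell, where 0.858% of all tested genes rose and 0.680% fell. The ligands that rose included KITLG (2.82 ± 0.43, adjusted p = 0.00572), the ligand of KIT, and PDGFA (1.70 ± 0.85, adjusted p = 0.0497). The receptors that rose were ERBB4, with a mean of 1.67 ± 0.46, and FGFR3, with 1.46 in replicate 1 and 1.54 in replicate 2. GFRA1 was the gene that fell. Insulin-like growth factor 2, encoded by IGF2 and abundant in rhabdomyosarcoma, had a mean of -1.11 ± 0.07 and did not pass (adjusted p = 0.0591).

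The counts of the next lists stand beside the 0.858% of all tested genes that rose and the 0.680% that fell. Among 30 tested genes of the TGF-beta and BMP pathways, GREM1 and the BMP receptor gene BMPR1B rose and 0 fell. BMPR1B had 2.97 and 2.59 in replicate 1 and 1.47 and 1.29 in replicate 2. BMP5, a BMP ligand, had 3.68 and 3.73 in replicate 1 but 0.36 and 0.50 in replicate 2 and did not pass (adjusted p = 0.201). In the Wnt list of 27 tested genes, the receptor gene FZD6 rose (1.54 ± 0.25) and AXIN2, a feedback inhibitor and target of the pathway, fell (-1.30 ± 0.07, adjusted p = 0.0445). In the Notch list of 18 genes, LFNG, a glycosyltransferase that modifies Notch, rose (1.82 ± 0.05) and the receptor gene NOTCH4 fell (-1.23 ± 0.10). Of 15 genes of retinoid handling, RARRES2, which encodes chemerin, rose (2.79 ± 0.03, adjusted p = 0.00203), and ALDH1A1, an enzyme of retinoic acid synthesis, fell (-2.04 ± 0.16, adjusted p = 0.00781). Of 17 neural genes, PTN and NLGN1, a neuroligin, rose and the microtubule protein gene DCX fell (-1.52 ± 0.04). For AXIN2, NOTCH4, ALDH1A1 and DCX the SD between replicates was at most 0.16. Of the 20 cytokine genes tested, IL7 alone passed, with 1.30 and 1.53 in replicate 1 and 3.04 and 3.05 in replicate 2. Of 22 imprinted genes only PHLDA2, a growth-restraining gene of the placenta, passed (3.02 ± 0.58, adjusted p = 0.00819).

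Gene groups tied to puromycin, vector or double-stranded RNA were examined because CON, but not WT, carried the vector and was grown in the drug. Puromycin ends translation early by entering the growing peptide. Of 34 tested genes of ribosomes and translation 0 passed by limma adjusted p and 1 had an unadjusted p under 0.05, against 16.6% of all tested genes, and the median was -0.15. Of 30 genes of the amino acid and unfolded protein responses, 2 rose and 0 fell, where 0.858% of all tested genes rose. HSPA5, the main chaperone of the endoplasmic reticulum, had 1.41, 1.48, 1.01 and 1.08 (adjusted p = 0.0479), and its co-chaperone gene DNAJC3 had 1.83, 1.67, 1.48 and 1.16 (adjusted p = 0.0252). The median of this list was -0.17. Among 9 tested ABC transporter genes, which include drug exporters, ABCC4 rose with a mean of 1.63 ± 0.29 (adjusted p = 0.0188). ABCC4 lies on chromosome 13, as do DNAJC3 and COL4A2. Of 33 interferon-stimulated genes 0 passed, where 1.54% of all tested genes passed, and 4 had an unadjusted p under 0.05. At least 2-fold lower in WT were 6 of the 33, as were 2.16% of all tested genes. Their median was -0.01 in replicate 1 and -0.58 in replicate 2. The antiviral gene IFIT1 had -0.71 and -0.53 in replicate 1 and -3.26 and -3.36 in replicate 2 (adjusted p = 0.312). Of 14 genes of RNA interference, 20 of retroviral silencing, 17 of heat shock and 25 p53 targets, 0 passed in each list, and 1, 4, 3 and 3 of them had an unadjusted p under 0.05.

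Most lists of general cell state held no called gene, and the redox list held 1. Over all tested genes 1.54% passed by limma adjusted p and 16.6% had an unadjusted p under 0.05. None of 32 mitosis genes, 31 replication genes or 14 cyclins and their inhibitors passed by limma adjusted p, with 3, 1 and 1 at an unadjusted p under 0.05, and their medians were 0.11, 0.01 and 0.08. Of 18 cholesterol genes 0 passed and 2 had an unadjusted p under 0.05, and the median was 0.10 in replicate 1 and -0.82 in replicate 2. Of 17 MHC class I and antigen presentation genes 0 passed and 2 had an unadjusted p under 0.05, and the median was 0.70 in replicate 1 and 0.21 in replicate 2. All 9 tested metallothionein genes, which bind zinc and copper, had positive means with a median of 0.47, and 0 passed, while 5 had an unadjusted p under 0.05. In the list of redox genes, GPX7 was the only one of 34 to pass, where 1.54% of all tested genes passed. HOX genes, which mark body position, had a median of 0.00 over 24 tested genes, of which 0 passed and 1 had an unadjusted p under 0.05. Among genes of energy metabolism, 0 of 28 genes of glycolysis and hypoxia, 0 of 20 of fat oxidation and 0 of 31 of the respiratory chain passed, with 9, 5 and 1 at an unadjusted p under 0.05. Of 29 immediate early genes 0 passed and 11 had an unadjusted p under 0.05. EGR1, a zinc finger factor induced by growth signals, had -0.54 and -0.60 in replicate 1 and -2.62 and -2.55 in replicate 2 (adjusted p = 0.148). Of 18 BCL2 family genes and 20 clustered protocadherin genes 0 passed, with 2 in each list at an unadjusted p under 0.05, and of 5 cancer-testis and 14 reference genes 0 passed, with 1 and 2. Over all 47 lists, 927 distinct genes were tested, of which 36 rose and 11 fell, against 0.858% and 0.680% of all tested genes.

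The genes joined in the fusion did not differ detectably between WT and CON. PAX3 had a mean of 0.02 ± 0.28 and FOXO1, the current name of FKHR, a mean of 0.14 ± 0.61, and the probes do not separate the fusion from the normal genes. Of 24 tested fusion target genes 0 passed by limma adjusted p, where 1.54% of all tested genes passed. An unadjusted p under 0.05 was seen in 8 of the 24 (33.3%), against 16.6% of all tested genes. CNR1, a cannabinoid receptor, had 2.03 and 2.26 in replicate 1 and 1.04 and 1.15 in replicate 2 (mean 1.62 ± 0.74, adjusted p = 0.0806). EYA2, a co-activator of homeobox factors, had 3.69 and 3.03 in replicate 1 and -1.09 and -0.80 in replicate 2. SULF2, a heparan sulfate editing enzyme, had 1.00 and 0.67 in replicate 1 and -2.26 and -2.38 in replicate 2, and MXRA5, a matrix protein, had 1.27 and 1.23 and then -0.65 and -0.56. These targets therefore went opposite ways in the replicates. SEPP1, a plasma selenoprotein, had 4.56 and 4.38 in replicate 1 and 0.50 and 1.1 in replicate 2 (adjusted p = 0.132). Means were -1.48 for OLIG1, -0.91 for ALDH1A3, -0.85 for NTF3, -0.73 for MCTP2, which was too dim to be tested, and 0.43 for TOX3. In replicates 1 and 2 the values were -0.24 and -2.72 for OLIG1, -0.24 and -1.58 for ALDH1A3 and -0.48 and -1.22 for NTF3. MCTP2 had -0.02 and -1.45, and TOX3 had 0.84 and 0.01. CPT1A, the carnitine palmitoyltransferase of mitochondrial fat import, had 0.46, 0.63, 1.47 and 0.96 (mean 0.88 ± 0.47, adjusted p = 0.116), while its other probe had a mean of -0.08. The reference genes GAPDH and ACTB had means of 0.64 ± 0.05 and 0.82 ± 0.66 (adjusted p = 0.174 and 0.194).

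KD1 values for the leading genes are set beside those of WT vs CON. These arrays reuse the WT and CON extracts and are no independent support. Calculated through the KD1 arrays, the 14 increases ranged from 3.32 to 6.93 and the 14 decreases from -2.60 to -5.22. KD1 was nearer to CON than to WT in 7 of the 14 genes with large increases and in 9 of the 14 with large decreases. These counts rest in part on ratios against background. They include GPX7 and F11R, for which CON was at background, and SEPT4, for which WT was. IGFBP2 and TSTD1 had KD1 over CON of -0.17 and 0.41 and KD1 over WT of -4.98 and -4.88. CCDC3 was instead nearer to WT, with KD1 over CON of 4.58 and over WT of -1.38. In the values that follow, for genes with CON at background, KD1 is set against WT only. KD1 over WT was -5.88 for GPX7 and -3.24 for F11R, whereas it was -1.04 for SLC40A1, -1.96 for KCNK1 and 1.55 for HNMT. KD1 was thus far below WT for GPX7 and F11R, below WT by a smaller margin for SLC40A1 and KCNK1, and above WT for HNMT.

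Most of the muscle genes named above were nearer to CON in KD1. KD1 over CON was 0.19 for MYOZ2, -0.52 for MYBPH, -0.51 for SMYD1, -0.34 for HSPB3 and -0.01 for MYL1, and KD1 over WT was 3.34, 2.68, 3.60, 3.03 and 2.46. In each of these 5 genes KD1 over CON was negative in replicate 1 and positive in replicate 2, with -0.62 and 1.0 for MYOZ2, -1.15 and 0.11 for MYBPH, -1.65 and 0.63 for SMYD1, -1.55 and 0.87 for HSPB3 and -0.84 and 0.82 for MYL1. SMPX, PRKAG3, MYL4 and TNNI1 were nearer to CON than to WT by their means but below CON in both replicates. KD1 over CON was -2.56 and -0.67 for SMPX, -1.41 and -0.80 for PRKAG3, -0.91 and -0.37 for MYL4 and -0.85 and -0.18 for TNNI1. MYOG was instead nearer to WT, with KD1 over CON of -1.14 and over WT of 0.60. SERPINA3, CLSTN2, TSP50 and GFRA1 were instead lower in KD1 as well, with KD1 over CON of -4.05, -5.98, -2.82 and -3.27. For COL2A1, FBN2 and BMPR1B, KD1 was below both cultures, with KD1 over CON of -2.48, -3.38 and -4.24 and over WT of -4.07, -4.96 and -5.96. The paper lists COL2A1, FBN2, BMPR1B and PTN among the genes lowered with PAX3-FKHR. Each of them also passed here as higher in WT than in CON. The other genes of that list were not examined as a group.

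Genes that rose in WT were concentrated on chromosome 13. Of 311 tested genes there, 27 rose (8.68%), compared with 137 of 18814 tested genes elsewhere (0.728%), and they made up 16.5% of all genes that rose. The median of chromosome 13 was 0.42 in replicate 1 and 0.52 in replicate 2. The medians of the other chromosomes lay between -0.15 and 0.10. Running medians over 51 neighboring genes exceeded their 99th percentile in both replicates along a stretch from INTS6 to ZNF828, at chr13:50837539-114110567 of NCBI36. This stretch covers 147 tested genes, of which 122 had a positive and 25 a negative mean, and the running median was 0.87 in each replicate. In it 24 genes rose and 0 fell. The genes' median was 0.83 directly and 0.80 through the KD1 arrays, on other slides. The median of KD1 over CON was 0.62 and that of KD1 over WT was -0.14.

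ABCC4, DNAJC3 and COL4A2, which rose in their lists above, lie in this stretch. Others there, chosen after their values were seen, have varied roles. They include GAS6, a ligand of TAM receptors (2.52), LAMP1, a lysosomal membrane protein (2.04), and NEK3, a mitotic kinase family member (1.99). In replicates 1 and 2 the values were 3.48 and 1.56 for GAS6, 2.50 and 1.58 for LAMP1 and 2.53 and 1.45 for NEK3. MIR17HG, the host transcript of a cluster of growth-promoting miRNAs, had 1.53 in replicate 1 and 1.56 in replicate 2 (adjusted p = 0.0183). IRS2, an adaptor of the insulin receptor, had 1.41 and 1.44 (adjusted p = 0.0221). Most of the 24 genes that rose there had means between 1 and 2.

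A shorter stretch at the end of chromosome 22, from NUP50 to RPL23AP82 at chr22:43962468-49584194, held 62 tested genes with running medians of 0.52 and 0.60. In it 4 genes rose, where 0.858% of all tested genes rose. Chromosome 22 as a whole had 4 of 473 tested genes that rose (0.846%), a share near that of all tested genes. Among the 4, chosen after their values were seen, were CRELD2, a protein of the endoplasmic reticulum (1.59 and 1.42 in the replicates), and HDAC10, a deacetylase (1.64 and 1.96). Stretches with lower levels in WT were shallower. Some windows lie beyond the 1st and 99th percentiles by definition. The percentiles were -0.38 and 0.41 in replicate 1 and -0.35 and 0.41 in replicate 2. On chromosome 5, from NUP155 to NDUFS4, the running medians were -0.40 and -0.35 over 5 windows, close to the 1st percentile. A pair of overlapping stretches on chromosome 9 had -0.42 and -0.38 and -0.41 and -0.39. In either stretch 0 genes were called, where 1.54% of all tested genes were. In the chromosome 5 stretch, BC038371 fell (-1.94) and ITGA2 rose (3.80). DNA copy number was not measured in these files, and its part in these stretches was not tested.

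**Figure D5:**
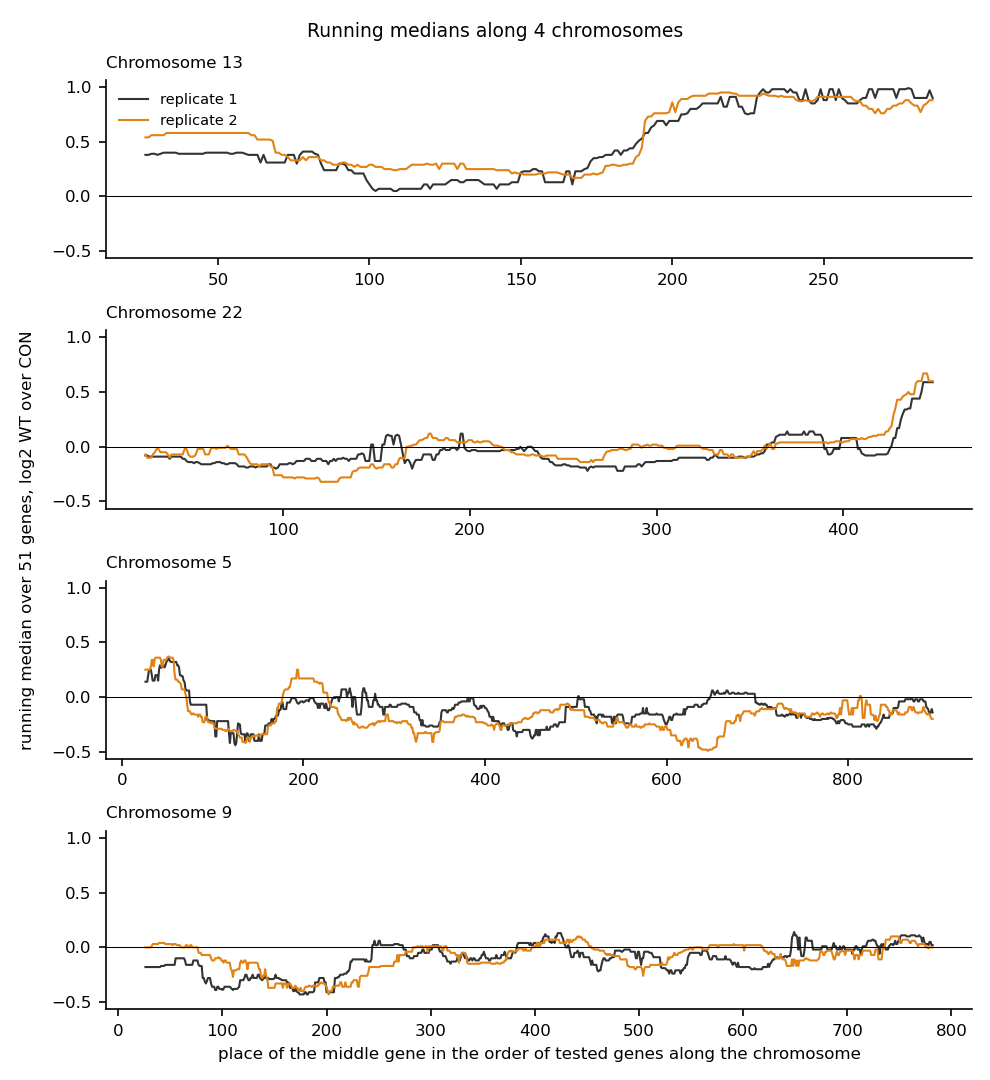
Running median of log2 WT over CON over 51 neighboring tested genes (y axis) in gene order along chromosomes 13, 22, 5 and 9 (x axis), with a line for each replicate. Both lines stay near 0.87 along the far part of chromosome 13, rise at the end of chromosome 22 and dip to about -0.40 on chromosomes 5 and 9.

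Different probes of a gene mostly had the same direction. Of the 28 leading genes, 5 had another tested probe, and each of these had the same sign. Of the 134 named genes, 47 had another tested probe, and for 5 of them, PAX3, FOXO1, CPT1A, RFC3 and DNMT3A, a probe had the opposite sign, while none of these 5 genes passed the test. Leaving out either replicate could not change the direction of the 28 leading genes, because they were chosen for the same direction on all 4 arrays. Without replicate 2, whose WT extract stood apart in EPCAM and KRT19, 1517 genes were at least 2-fold apart. Without replicate 1 this count was 1286. Fits that leave out a replicate rest on 1 value for WT vs CON and on the spread of the KD1 comparisons.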

How the data were processed

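RNA of WT and CON was hybridized together on 4 Agilent whole human genome arrays, all on 1 slide. The authors extracted spots with Agilent Feature Extraction 10.5.1.1 and deposited linear intensity values, detrended, scaled and lowess-normalized within each array, with a surrogate for spots at background. A log10 ratio of Cy5 over Cy3, as deposited by the authors, comes from these signals. The series table deposited by the authors holds these ratios as log2 values, which differed from the converted ratios by at most 5.35e-06, and 0 of its sample columns were left unmatched. Probe positions are those of the files (NCBI36).

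Log2 ratios of processed intensities were turned to WT over CON, averaged over spots without outlier flags (111 to 188 flagged per array) and over the dye-swap pair. The limit of the 153 negative controls was 1.94 to 12.64 in Cy3 and 5.21 to 13.14 in Cy5. The number of arrays limits the precision. In R 4.3.3, limma 3.58.1 was fitted with lmFit and eBayes to the 6 replicate values of the 3 comparisons, with 2 residual degrees of freedom, calculated by Satterthwaite's method because extracts are shared, and checked on simulated data. Same-numbered extracts are paired by hybridization on the same array. Python 3.11.15, numpy 2.4.6, pandas 2.3.3 and matplotlib 3.10.9 were used. Of 19229 RefSeq accessions on the array, 18606 matched the gene table of GRCh38.p14, used for current names.

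Named genes were the 14 called RefSeq genes with the largest mean in each direction, well above background on all arrays of a culture, up to 4 called or 2 uncalled members of each of 47 lists, the study's own genes and those nearest the 2-fold limit. A few items are not reported here. The comparison and the lists were chosen with earlier results of these data known.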

Additional observations from a re-analysis of the deposited data

How the results depend on the processing

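The number of probes called, 378 by limma with the authors' processed signals (56.3% of them higher in WT), was 368 with the series table and 357 to 395 when a replicate was left out. Of the 378, 216 passed without replicate 1 (50.4% of 357 higher) and 232 without replicate 2 (68.6% of 395 higher). The count was 2 with normexp background correction (offset 50) and loess, 185 with median centring (67.6% higher), 200 without the filter on low signals, 250 with probes well above background in both channels of every array, 233 with the residual degrees of freedom as counted, 88 through the KD1 arrays, 946 with the WT vs CON values alone, 942 with only the arrays with WT in Cy5 and 1104 with only the dye swaps. Without the replicate block, that is with separate channels in place of paired ratios, 203 probes passed, 169 of them among the 378. The 903 genes at least 2-fold apart became 288 with normexp, 2736 at a limit of 1.5-fold, 152 at 4-fold, 358 when each array had to pass, and 1286 to 1517 when a replicate was left out. The cause of these shifts was not tested.

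All 294 called genes, the 28 leading ones among them, had the same direction on all 4 arrays. Fits on part of these arrays could therefore not change it. All 28 leading genes kept their direction in each of these settings in which they were tested. They still passed in 28 cases with WT vs CON alone, 24 with median centring, 23 without the replicate block, 23 without the filter on low signals, 19 with the residual degrees of freedom as counted, 19 through the KD1 arrays and 2 with normexp. For the called genes named in the text, 597 values under the alternatives stayed past the threshold and 224 did not, and none changed direction. Of the genes that had not passed, these changed direction. Without replicate 1 and without replicate 2, respectively, FAS was -0.04 and 1.71, GAD1 -0.04 and 0.43, PAX3 -0.18 and 0.22, FOXO1 -0.29 and 0.57, EYA2 -0.95 and 3.36, MXRA5 -0.60 and 1.25, BMF -1.84 and 0.27, TIE1 2.10 and -0.81 and SULF2 -2.32 and 0.84. PAX3 was -0.03 through the KD1 arrays and -0.01 with only the dye swaps. The medians of 2 of 47 lists moved under the median of all probes, HOX genes to -0.02 and neural genes to -0.10. Signal over background limits genes near the negative controls, whose ratios are bounds.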
